A study of Mus musculus with 4 samples.

Results

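The colony-stimulating factors and their receptors were followed through treatment of J774M cells with the neutral ceramidase inhibitor NC06. The set held 10 genes of the 26246 that could be named on the arrays. They were the 3 ligand genes Csf1, Csf2 and Csf3, the 3 receptor tyrosine kinases Csf1r, Kit and Flt3, and the 4 cytokine receptor subunits Csf3r, Csf2ra, Csf2rb and Csf2rb2. The set was chosen with earlier results of these data known. Its probe sets were matched to the genes by symbol alone, and 11 probe sets carried them, 2 of these for Csf2. J774M is a mouse cell line that its submitters describe as resembling myeloid-derived suppressor cells, an immature myeloid population known for its power to restrain T cells. Of the 4 arrays, 2 came from J774M cells cultured with 10 uM NC06 for 24 h and 2 from control J774M cells. All cells grew in RPMI medium with 10% FBS, and the sources used here do not say what was added to the control cultures. All 4 arrays thus describe 1 cell line. The labels do not state whether the 2 arrays of a group stand for separate cultures. Each p-value therefore reflects the spread among these arrays alone, which may be technical.

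Colony-stimulating factors are secreted proteins that keep myeloid cells alive and drive their growth and maturation. M-CSF, the product of Csf1, binds the receptor kinase CSF1R and is known for sustaining macrophages, while G-CSF, the product of Csf3, acts through CSF3R on the neutrophil lineage. GM-CSF, the product of Csf2, binds the alpha chain CSF2RA, which then pairs with the beta chain CSF2RB and signals through JAK2 and STAT5. Mice carry an additional beta chain gene, Csf2rb2, whose product serves IL-3, and the common beta chain is shared by GM-CSF, IL-3 and IL-5. KIT and FLT3 are related receptor kinases of progenitor cells. GM-CSF and G-CSF are known for expanding myeloid-derived suppressor cells.

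In NC06-treated cells the signals of Csf2ra, Csf2rb and Csf2rb2 were 1.66-fold, 1.70-fold and 2.07-fold those of control cells. The genes for the ligands, and those for the M-CSF, G-CSF, stem cell factor and FLT3 ligand receptors, differed by at most 0.16 log2. Differences were tested with limma over all 26246 genes, with Benjamini-Hochberg adjustment. At an adjusted p under 0.05 it called 0 of the 10 genes and 0 genes in all (0.0%). At an unadjusted p under 0.05 it counted 3 of the 10, all higher, beside 15.3% of all genes (2044 higher, 7.79%, and 1974 lower, 7.52%). With limma's robust prior, in which the variance follows a trend over signal, these 3 genes rose at an adjusted p under 0.05 and 0 fell. That setting called 5.56% of all genes, 2.44% as higher and 3.12% as lower. When genes under the median signal were dropped, 7 members were tested and the same 3 rose, beside 6.37% of the genes tested (3.44% higher and 2.93% lower). At an unadjusted p under 0.05 that setting counted 4 of the 7 members, beside 29.7% of the genes tested. The members thus lean to bright genes, and the 3 of 10 beside 15.3% is not read as an excess. The median difference over the 10 genes was 0.057 log2, beside 0.002 log2 over all genes.

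**Figure D1:**
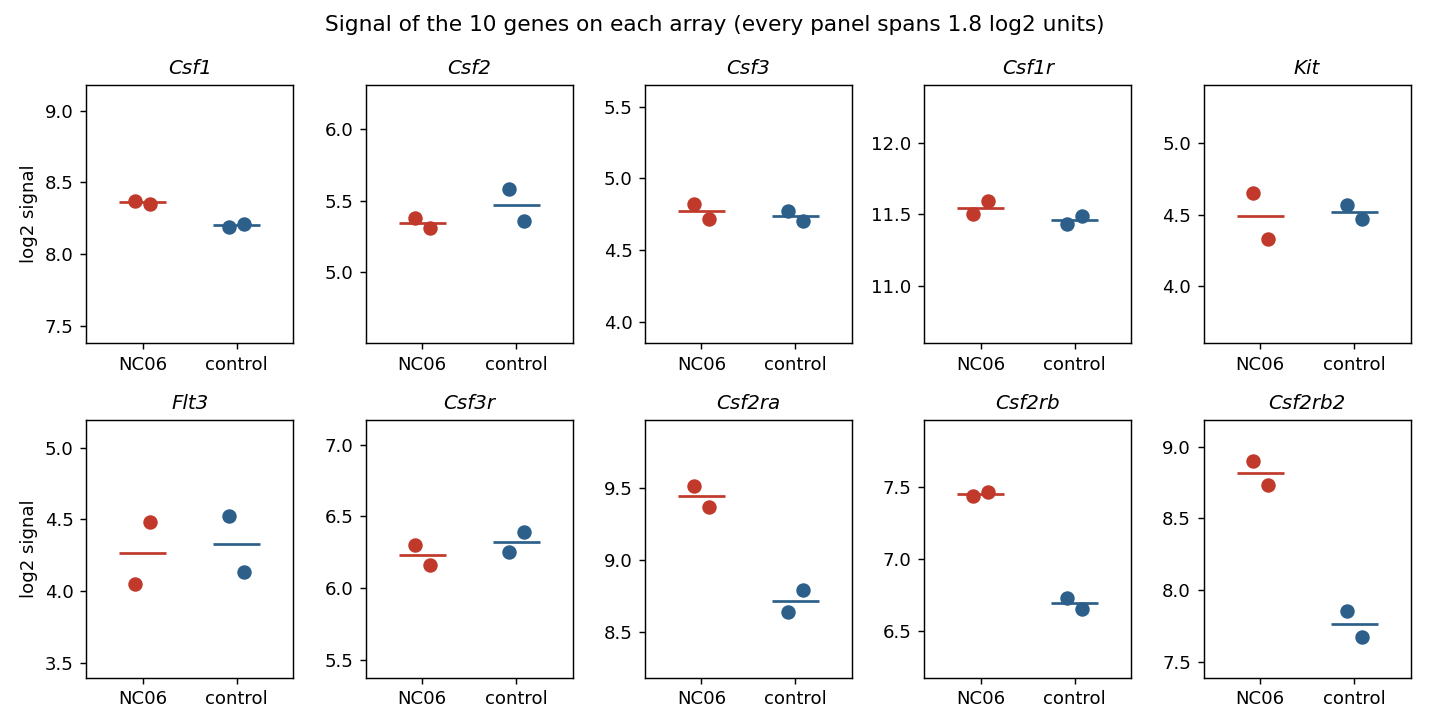
Log2 signal of each of the 10 genes, with 1 point per array, NC06 at the left and control at the right of each panel, and a line at each group's mean. Every panel spans the same number of log2 units, so distances can be compared between panels. Both NC06 points lie well above both control points for Csf2ra, Csf2rb and Csf2rb2, while for Csf2, Csf3, Kit, Flt3 and Csf3r the points of the groups overlap.

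The arrays' median signal was 4.75 and 4.74 log2 for NC06, against 4.68 and 4.67 log2 for control. Across named probe sets, arrays correlated at 0.993 to 0.995. Of 10 macrophage markers, 8 lay above the upper quartile of every array, among them Itgam, Cd68 and Adgre1. Of 10 neutrophil markers, 3 lay above the median of every array, Ly6g, S100a8 and Cxcr2, while the granule genes Mpo, Camp and Ngp and the S100a8 partner S100a9 did not. The J774M arrays thus carried macrophage markers strongly and granulocytic markers in part.

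Among the ligand genes, Csf1 read 8.37 and 8.35 log2 in NC06 cells, against 8.19 and 8.21 log2 in control cells. The NC06 values lay above the control values by a narrow margin. The difference was 0.16 log2 (SE 0.075, 95% interval from -0.04 to 0.36), or 1.12-fold. In the limma fit its unadjusted p was 0.088 and its adjusted p 0.389. The authors' deposited table gave Csf1 a ratio of 1.12 and an unadjusted p of 0.00708, which was 0.289 after Benjamini-Hochberg adjustment. The unadjusted limma p of Csf1 was 0.046 after quantile normalization, 0.037 without genes below the median signal and 0.026 with the robust trend prior. The lowest adjusted p of Csf1 among the alternatives was 0.145. Within each group the Csf1 arrays differed by only 0.02 log2, and limma's SE for the gene is moderated towards the spread of all genes.

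Csf2, the GM-CSF gene, read 5.38 and 5.31 log2 in NC06 cells, against 5.58 and 5.36 log2 in control cells in its brighter probe set, and the groups overlapped. The difference was -0.12 log2 (95% interval from -0.42 to 0.17, adjusted p 0.633 in limma). Its dimmer probe set read 4.07 and 4.51 log2 in NC06 cells, against 4.30 and 4.73 log2 in control cells, a difference of -0.23 log2 within the spread of its arrays.

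Csf3, the G-CSF gene, read 4.82 and 4.72 log2 in NC06 cells, against 4.77 and 4.70 log2 in control cells, which placed it beside the median of each array. Its difference of 0.03 log2 (95% interval from -0.20 to 0.26) was no larger than the gaps between replicate arrays and changed sign after median centring of the arrays. Its probe set is dim, which limits the change that could be detected.

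Csf1r, the M-CSF receptor of macrophages, read 11.50 and 11.59 log2 in NC06 cells, against 11.43 and 11.49 log2 in control cells. Its signal lay at or above percentile 98.9 of the genes on each array. The NC06 values lay above the control values by as little as 0.01 log2, and the difference was 0.08 log2 (95% interval from -0.14 to 0.30, adjusted p 0.673 in limma). The interval spans 0.909-fold to 1.23-fold.

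Kit, the receptor for stem cell factor, read 4.65 and 4.33 log2 in NC06 cells, against 4.57 and 4.47 log2 in control cells. Flt3, the receptor for FLT3 ligand, read 4.05 and 4.48 log2 in NC06 cells, against 4.52 and 4.13 log2 in control cells. Both genes lay below the median of every array, and their groups overlapped. Values of B cell markers on the same arrays ran from 2.77 to 4.88 log2 and those of T and NK cell markers from 3.27 to 5.66 log2. Their differences were -0.03 log2 for Kit (95% interval from -0.39 to 0.33) and -0.07 log2 for Flt3 (95% interval from -0.63 to 0.50). The 9 mast cell markers, of cells known for high KIT, all read at or below 4.48 log2, and 4 of them lay below the lower quartile of every array.

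Csf3r, the G-CSF receptor of the neutrophil lineage, read 6.30 and 6.16 log2 in NC06 cells, against 6.25 and 6.39 log2 in control cells. The groups overlapped, and the difference was -0.09 log2 (SE 0.10, 95% interval from -0.36 to 0.18, adjusted p 0.715 in limma). On these same arrays, of 10 neutrophil markers 4 were higher and 1 lower at an unadjusted p under 0.05, beside 7.79% and 7.52% of all genes, and 0 passed over all genes.

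Csf2ra, the ligand-binding alpha chain of the GM-CSF receptor, read 9.52 and 9.37 log2 in NC06 cells, against 8.64 and 8.79 log2 in control cells. The groups did not overlap, and the smallest difference between an NC06 and a control array was 0.58 log2. The means were 9.44 ± 0.11 log2 in NC06 cells and 8.72 ± 0.10 log2 in control cells (SD, n = 2 each). The difference was 0.73 log2 (SE 0.10, 95% interval from 0.45 to 1.01), with an unadjusted p of 0.00157 and an adjusted p of 0.155 in limma. Only 0.998% of all genes had a larger absolute difference.

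Csf2rb, the beta chain shared by the receptors for GM-CSF, IL-3 and IL-5, read 7.44 and 7.47 log2 in NC06 cells, against 6.73 and 6.65 log2 in control cells. Each pair of arrays lay within 0.08 log2, while the groups stood at least 0.71 log2 apart. The means were 7.46 ± 0.027 log2 in NC06 cells and 6.69 ± 0.054 log2 in control cells (SD, n = 2 each). The difference was 0.77 log2 (SE 0.080, 95% interval from 0.55 to 0.98), with an unadjusted p of 0.000421 and an adjusted p of 0.0961 in limma.

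Csf2rb2, the beta chain that serves the mouse IL-3 receptor, read 8.90 and 8.73 log2 in NC06 cells, against 7.85 and 7.67 log2 in control cells. The lowest NC06 value stood 0.88 log2 above the highest control value. The means were 8.81 ± 0.12 log2 in NC06 cells and 7.76 ± 0.13 log2 in control cells (SD, n = 2 each). The difference was 1.05 log2 (SE 0.11, 95% interval from 0.75 to 1.36), with an unadjusted p of 0.000481 and an adjusted p of 0.103 in limma. By size it ranked 52 from the highest among the 26246 genes.

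Csf2rb and Csf2rb2 are close paralogues that lie next to each other on chromosome 15, with 0 protein-coding genes between them. A probe set for one may therefore also read transcripts of the other. The probe sequences were not used here, and the part of such shared reading in the 2 differences was not tested. Csf2ra lies on chromosome 19 and is not a paralogue of this kind.

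With the robust trend prior the adjusted p was 0.00256 for Csf2ra, 0.00239 for Csf2rb and 0.00103 for Csf2rb2. Among genes above the median signal it was 0.0252 for Csf2ra, 0.0108 for Csf2rb and 0.0149 for Csf2rb2. Without the lowest signal quartile of genes only Csf2rb and Csf2rb2 passed, at adjusted p of 0.0386 and 0.0463. Leaving out any 1 array kept the 3 differences between 0.65 and 1.15 log2, at adjusted p from 0.439 to 0.519. The authors' deposited table gave unadjusted p-values of 0.0211 for Csf2ra, 0.00304 for Csf2rb and 0.0139 for Csf2rb2, where 12.8% of its probe sets had a p under 0.05. After Benjamini-Hochberg adjustment they were 0.323, 0.270 and 0.304, and 0 of 31867 probe sets passed. With the replicate block each of the 3 genes had an adjusted p of 0.365 in limma. None of the 3 passed under the other normalizations or choices of probe set.

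**Figure D2:**
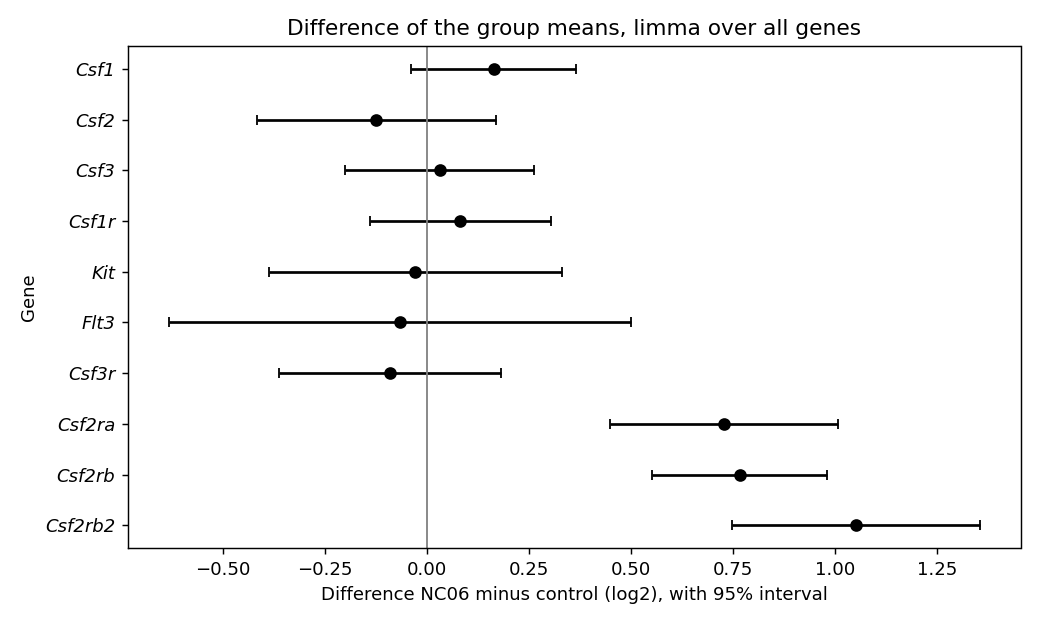
Difference of the group means (NC06 minus control, log2) for each of the 10 genes, with the 95% interval of the limma fit over all genes. The intervals of Csf2ra, Csf2rb and Csf2rb2 lie wholly above 0, and those of the other 7 genes include 0.

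**Figure D3:**
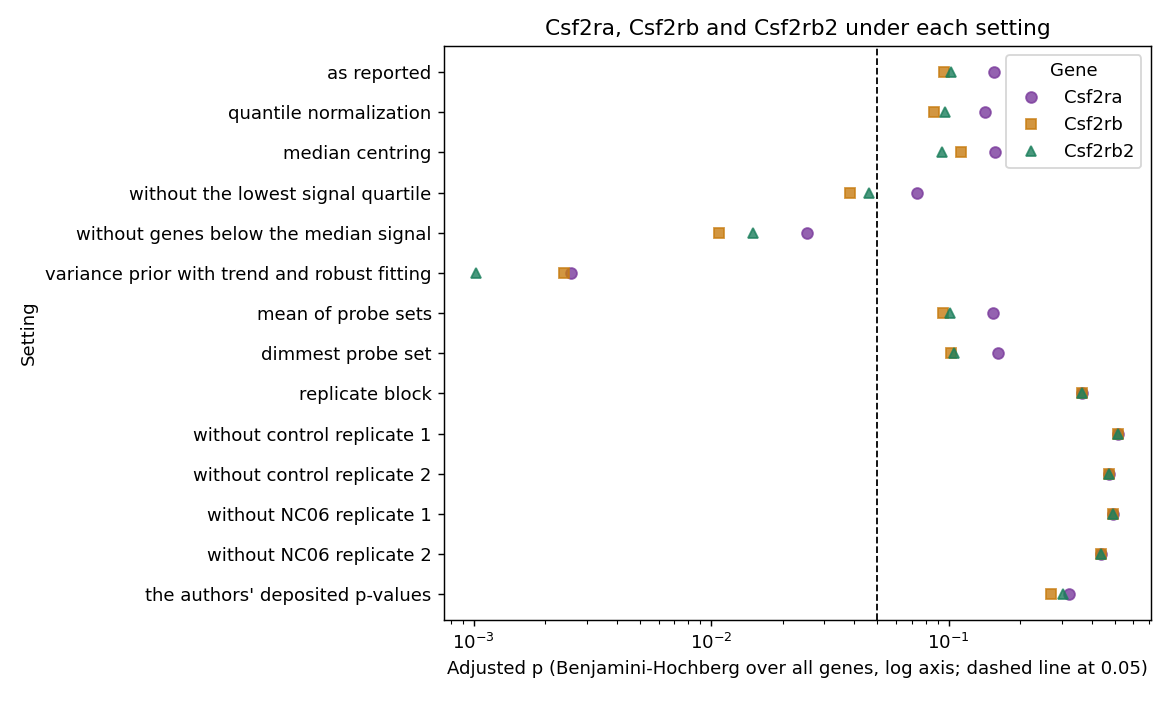
Adjusted p of Csf2ra, Csf2rb and Csf2rb2 (log axis) under the fit as reported and under each alternative, with a dashed line at 0.05. The points fall left of the line for all 3 genes with the robust trend prior and among genes above the median signal, and lie at their highest where 1 array was left out.

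The upper bound of the interval was at most 0.36 log2 for Csf1, Csf2, Csf3, Csf1r, Kit and Csf3r, while the lower bound for Csf2ra was 0.45 log2. The interval of Flt3 reached 0.50 log2 and so overlapped that of Csf2ra, but not those of Csf2rb and Csf2rb2. The difference between members was not itself tested. In 5 of the 10 genes the NC06 values all lay above the control values, in 0 they all lay below, and in 5 the groups overlapped. Over all genes the groups did not overlap in 47.7%, with NC06 above in 23.3% and below in 24.4%.

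No marker of another cell type or of the macrophage lineage passed at an adjusted p under 0.05 in the limma fit, and the counts here are at an unadjusted p under 0.05, beside 7.79% of all genes higher and 7.52% lower. The summed signal of 10 neutrophil markers, on a linear scale, was 518 and 483 in NC06 cells, against 264 and 278 in control cells, with 4 markers higher and 1 lower and a median difference of 0.27 log2. Ly6g was 1.38 log2 higher (adjusted p 0.0546 in limma), S100a8 1.48 (0.0793), Cxcr2 1.01 (0.0912) and Ltf 0.30. Ngp was the lower one, at -0.28 log2, and S100a9 and Mpo had differences of -0.22 and -0.04 log2. Of these markers only Ly6g, S100a8 and Cxcr2 lay above the median of every array. As the brightest, they weigh most in the summed signal. Ltf and Ngp were dim, at means of 4.03 and 3.96 log2 in NC06 cells and 3.73 and 4.24 log2 in control cells. Only Retnlg lay below the lower quartile of every array. The summed signal of 10 macrophage markers was 18505 and 18535 in NC06 cells, against 14164 and 14452 in control cells, with 4 markers higher and 0 lower and a median difference of 0.18 log2. Lyz2 was 1.21 log2 higher, Adgre1 0.88, Itgam 0.84 and Mertk 0.60. Of 7 measured dendritic cell markers 2 were higher and 0 lower at that p, Itgax at 1.46 log2 and Siglech at 0.25 log2, with a median of -0.02 log2. Of the 9 mast cell markers 0 were higher and 2 lower, Hdc and Fcer1a, with a median of 0.02 log2. Of 8 progenitor markers Procr was higher, at 0.60 log2, and Myb lower. The lists of T and NK cells and of B cells had medians of 0.008 and -0.02 log2, and that of stroma and endothelium 0.16 log2. In the last list Acta2, Pdgfrb and the dim Epcam were higher, while Dcn had a difference of -0.31 log2 (unadjusted p 0.0544 in limma). The part of these in the receptor differences was not tested. In bulk RNA a changed number of cells of a type and a changed amount of RNA per cell cannot be told apart.

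The promoters of Csf2ra and Csf2rb2 are shown because both genes were higher in NC06 cells, and that of Csf3r as a myeloid receptor gene whose groups overlapped. Promoter windows of 250 bases before to 50 bases after the start, from RefSeq on GRCm38.p6, were matched for 7 of the 10 genes, all but Csf2rb, Csf3 and Csf1r. Capitals mark the core of the site of PU.1, a transcription factor of myeloid genes, searched as GAGGAA on either strand, so that TTCCTC marks the opposite strand. Csf2ra lies on the minus strand at chr19:61228369-61228668, Csf2rb2 on the minus strand at chr15:78305672-78305971, and Csf3r on the plus strand at chr4:126024409-126024708.
Csf2ra: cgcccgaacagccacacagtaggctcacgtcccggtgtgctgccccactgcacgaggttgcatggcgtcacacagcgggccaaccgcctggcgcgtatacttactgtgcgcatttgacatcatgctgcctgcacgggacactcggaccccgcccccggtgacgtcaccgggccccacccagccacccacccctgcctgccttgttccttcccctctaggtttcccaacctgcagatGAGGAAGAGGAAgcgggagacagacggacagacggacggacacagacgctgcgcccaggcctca
Csf2rb2: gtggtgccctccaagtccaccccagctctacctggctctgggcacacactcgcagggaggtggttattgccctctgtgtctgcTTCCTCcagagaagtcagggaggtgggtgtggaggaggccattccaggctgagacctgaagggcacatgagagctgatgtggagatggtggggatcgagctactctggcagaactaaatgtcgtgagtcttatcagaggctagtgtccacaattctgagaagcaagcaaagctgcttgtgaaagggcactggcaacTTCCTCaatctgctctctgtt
Csf3r: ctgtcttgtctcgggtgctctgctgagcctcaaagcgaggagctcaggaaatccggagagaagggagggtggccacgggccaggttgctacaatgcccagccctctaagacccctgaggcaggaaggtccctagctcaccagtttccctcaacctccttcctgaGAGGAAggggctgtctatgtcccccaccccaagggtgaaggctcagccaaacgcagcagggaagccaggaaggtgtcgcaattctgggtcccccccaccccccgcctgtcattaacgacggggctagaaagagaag
The windows of Csf2ra and Csf2rb2 each held 2 matches, which stand side by side in Csf2ra without overlapping, and that of Csf3r held 1. Kit held 1 match, and Csf1, Csf2 and Flt3 held 0. Of 32851 promoter windows of this length, 28.3% held at least 1 match and 4.82% held at least 2. The STAT motif TTCNNNGAA, which is its own reverse complement, was found once, in Csf2rb2, and in 8.30% of all windows. The C/EBP motif TTNNGNAAT (either strand, in 11.5% of all windows) and the AP-1 motif TGANTCA (in 7.81%) were found in none of the 7 genes. A match is a run of letters and not evidence of binding.

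Other cytokines and receptors of the same families were measured in 10 of 11 listed genes. At an unadjusted p under 0.05, 3 were higher and 0 lower, beside 7.79% and 7.52% of all genes. The median was 0.20 log2, and 0 passed over all genes. Pdgfa, a platelet-derived growth factor, averaged 7.03 log2 in NC06 cells and 6.43 log2 in control cells, a difference of 0.60 log2 (adjusted p 0.146 in limma). Kitl, the stem cell factor that binds KIT, was 0.25 log2 higher, and Pdgfrb, a kinase related to CSF1R, was 0.28 log2 higher at a dim signal. Pdgfb had a difference of -0.27 log2, at an unadjusted p of 0.0944 in limma. Il3ra, the alpha chain that directs the beta chains to IL-3, read 5.57 and 5.74 log2 in NC06 cells, against 5.65 and 5.39 log2 in control cells. Il5ra, the corresponding chain for IL-5, read 4.18 and 3.68 log2 in NC06 cells, against 3.66 and 3.82 log2 in control cells. The groups overlapped for both alpha chains, whose differences were 0.13 and 0.19 log2. Il34, an alternative ligand of CSF1R, had a difference of -0.32 log2 with overlapping groups.

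Genes of proximal signalling, the kinases, adaptors and STATs downstream of these receptors, numbered 29. At an unadjusted p under 0.05, 3 were higher and 2 lower, beside 7.79% and 7.52% of all genes. The median was 0.008 log2, and 0 passed over all genes. Jak2, the kinase bound to the common beta chain, read 9.63 and 9.67 log2 in NC06 cells, against 9.22 and 9.23 log2 in control cells. Its difference was 0.42 log2 (SE 0.076, adjusted p 0.195 in limma, and 0.00426 with the robust trend prior). Stat5a and Stat5b, the STATs that GM-CSF activates, had differences of -0.05 log2 (adjusted p 0.874 in limma) and -0.07 log2 (adjusted p 0.731). The SRC family kinase gene Fgr was 0.44 log2 higher (adjusted p 0.261 in limma), at a dim signal that lay below the array median in control cells. Ptpn11, the phosphatase SHP2, had a difference of -0.26 log2.

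Feedback genes and inhibitors numbered 16. There were 3 higher and 0 lower genes at an unadjusted p under 0.05, beside 7.79% and 7.52% of all genes. The median was 0.03 log2, with 0 past the threshold over all genes. Socs3, the inhibitor of G-CSF and IL-6 signalling, read 7.19 and 7.07 log2 in NC06 cells, against 6.55 and 6.83 log2 in control cells, a difference of 0.44 log2 (adjusted p 0.266 in limma). The transmembrane phosphatase genes Ptprc and Ptprj were 0.28 and 0.29 log2 higher. Ptpn6, which encodes the phosphatase SHP1, had a difference of -0.15 log2 (adjusted p 0.424 in limma). Cish, a feedback gene that STAT5 induces, read 5.39 and 5.52 log2 in NC06 cells, against 5.36 and 5.51 log2 in control cells. Its difference of 0.02 log2 was smaller than the gap inside either group.

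Of 12 STAT5 and STAT3 targets, 3 were higher and 2 lower at an unadjusted p under 0.05, beside 7.79% and 7.52% of all genes. The median was 0.09 log2, with 0 past the threshold over all genes. Bcl3, an atypical inhibitor of NF-kB that STAT3 induces, was 0.64 log2 higher (adjusted p 0.209 in limma). Osm, the oncostatin M gene that STAT5 induces, was 0.40 log2 higher, while Pim2 and Myc had differences of -0.26 and -0.23 log2. Pim1, Bcl2l1 and Mcl1, known survival genes downstream of these STATs, had differences from 0.05 to 0.09 log2.

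**Figure D4:**
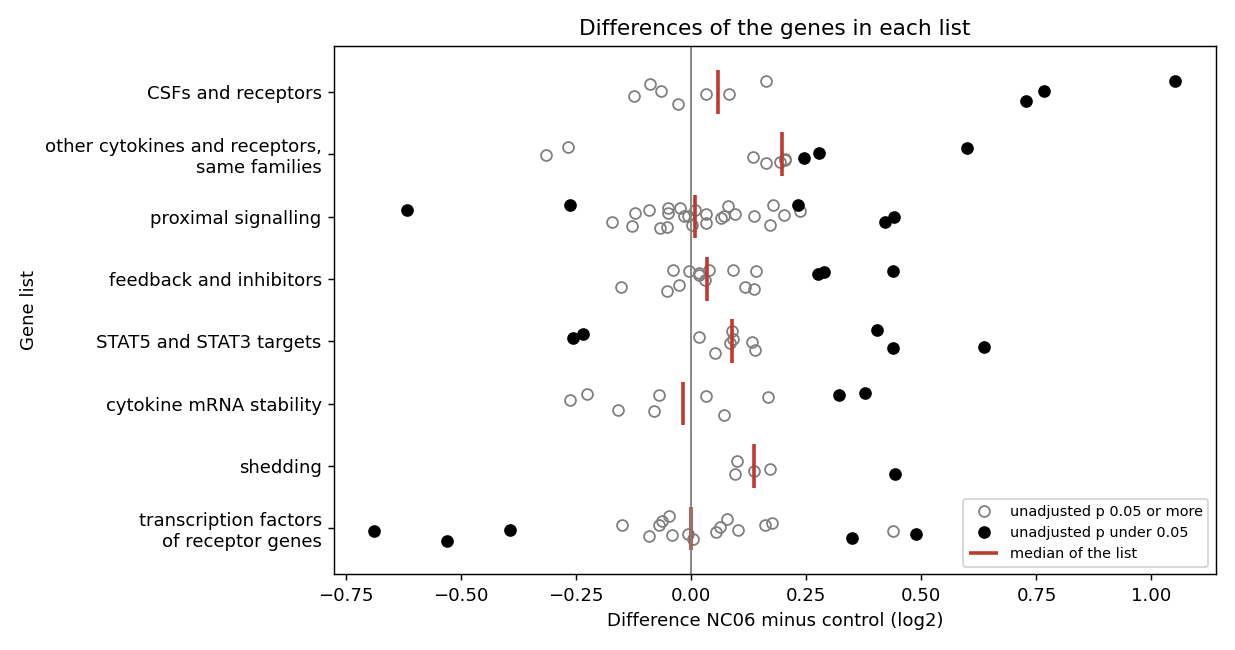
Difference NC06 minus control (log2) of every gene in the 10-gene set (CSFs and receptors) and in the 7 related lists. Filled points had an unadjusted p under 0.05 in the limma fit, open points did not, and the red line is the median of each list. The 3 subunit genes stand furthest to the right of all genes shown, and the medians of the lists lie between -0.02 and 0.20 log2.

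Transcription factors known to act on these receptor genes or in their lineages numbered 20. At an unadjusted p under 0.05, 2 were higher and 3 lower, beside 7.79% and 7.52% of all genes. The median was -0.001 log2, with 0 past the threshold over all genes. Myb, a factor of progenitors that falls as myeloid cells mature, read 6.26 and 6.33 log2 in NC06 cells, against 6.94 and 7.03 log2 in control cells, a difference of -0.69 log2 (adjusted p 0.128 in limma). Irf8, a factor of monocytes that interferon gamma induces, had a difference of -0.53 log2 (adjusted p 0.155). Egr1 had a difference of -0.39 log2. Spi1, which encodes PU.1, read 9.45 and 9.41 log2 in NC06 cells, against 9.36 and 9.39 log2 in control cells, a difference of 0.05 log2.

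Genes that set the stability of cytokine transcripts numbered 10. At an unadjusted p under 0.05, 2 were higher and 0 lower, beside 7.79% and 7.52% of all genes. The median was -0.02 log2, with 0 past the threshold over all genes. Zfp36l2, of the tristetraprolin family, was 0.38 log2 higher, and the ribonuclease gene Zc3h12a 0.32 log2 higher. Khsrp and Elavl1, which encode proteins that destabilise and stabilise such transcripts, had differences of -0.23 and -0.26 log2 at unadjusted p of 0.0523 and 0.0664 in limma. Of 5 genes of shedding, which releases receptor ectodomains, 1 was higher at an unadjusted p under 0.05, beside 7.79% of all genes. This was Rhbdf2, the partner that matures the sheddase ADAM17, at 0.44 log2 (adjusted p 0.203 in limma), while Adam17 itself was at 0.17 log2, Adam10 at 0.14 and Rhbdf1 at 0.10. The list's median was 0.14 log2, and 0 of its genes passed over all genes. In all, the 7 lists held 99 distinct measured genes. At an unadjusted p under 0.05, 16 were higher and 7 lower, 23.2% of them beside 15.3% of all genes. These lists lean to bright genes, as 86 of the 99 were above the median signal. In the fit on genes above the median signal, 29.7% of all genes tested had an unadjusted p under 0.05. The 23.2% is therefore not read as an excess.

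With the robust trend prior, 8 of these 99 genes rose and 6 fell at an adjusted p under 0.05, beside 2.44% and 3.12% of all genes. As the lists lean to bright genes, all genes are not a matched comparison, and no excess is read from these counts. The listed genes that rose included Pdgfa, Jak2, Ptprc, Bcl3, Zfp36l2, Rhbdf2 and Mitf. Those that fell included Ptpn11, Myc, Khsrp, Myb and Irf8. Among genes above the median signal, 86 of the 99 were tested. Of these, 5 rose, among them Pdgfa, Jak2, Bcl3 and Rhbdf2, and 3 fell, among them Irf8 and Myb. Over all genes tested in that setting, 3.44% rose and 2.93% fell. Alongside Csf2ra, Csf2rb and Csf2rb2, both settings thus called Jak2, Pdgfa, Bcl3 and Rhbdf2 among the higher genes and Irf8 and Myb among the lower. Stat5a and Stat5b passed in neither setting.

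Over the 4 arrays, the profile of Csf2rb was matched most closely by that of Rasa2, a RAS GTPase-activating protein, then of Cd36, a scavenger receptor, and of Tmem50b, a transmembrane protein. Csf2rb was used for this as the member with the largest absolute moderated t. Closeness was the Euclidean distance over the 4 arrays after centring each gene on its mean, and it was 0.033, 0.054 and 0.060 log2. With 4 arrays in 2 groups, this likeness mostly reflects a similar difference between the groups.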

How the data were processed

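RNA from 4 samples of J774M cells, 2 treated with NC06 and 2 control, was hybridised to whole-transcript Affymetrix arrays. Groups and replicate numbers came from the sample titles. The authors deposited 1 log2 value per probe set and array. Per the submitters' processing notes Partek was used, while its version, background correction and normalization are not given in the sources used here. A second table of the authors holds, per probe set, the ratio NC06 over control and an unadjusted p-value. On the log2 scale its ratios equalled the differences of the deposited values within 8.8e-05, which fixes scale and direction.

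Of 41345 probe sets, 23521 took 1 gene from the platform annotation and 4311 a symbol of the authors' table that RefSeq holds. The 1820 with several genes and the 11693 unnamed were not tested. Each of the 26246 genes was represented by its brightest probe set. Limma 3.58.1 in R 4.3.3 (lmFit and eBayes, two-sided) was fitted to all 4 arrays without a block, and p-values were adjusted by Benjamini-Hochberg across the genes, with calls made under 0.05. Residual degrees of freedom were 2 and prior ones 2.36. The fit was checked on simulated data. SE and intervals are those of the moderated fit. The number of arrays limits the precision.

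The 10 genes, the 7 related lists and the marker lists were chosen with earlier results of these data known. All members were named, and in each related list mainly the 4 genes with the smallest p. Others were named for their role after their values were seen. Some genes of these lists are counted but not reported here by name. The lists were described by counts and medians, with no test of the list. The alternatives were other normalizations, filters, a trend and robust prior, other choices of probe set, a replicate block, omission of each array in turn, and the authors' p-values. The authors' ratios are between same-numbered arrays, while the sample labels state no pairing. Same-numbered arrays of the groups did not deviate together (r = 0.032 across genes), so the main fit assumed no pairing. Tables were made with Python 3.11.15, pandas 2.3.3 and numpy 2.4.6.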

Additional observations from a re-analysis of the deposited data

How the results depend on the processing

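The direction was the same under all 13 alternatives for Csf1, Csf2, Csf1r, Csf2ra, Csf2rb, Csf2rb2 and Csf3r. The limma fit called 0 of all genes as reported, 13 after quantile normalization, 28 after median centring, 133 without the lowest signal quartile, 836 without the genes below the median signal, 1459 with the trend and robust prior, and 2 each when a gene's probe sets were averaged or its dimmest was taken. Of the 10 members it called 2 without the lowest quartile, where 133 of the 19684 genes tested were called. With the trend and robust prior it called 3 of the 10, beside 5.56% of all genes. Without the genes below the median it called 3 of the 7 members tested, beside 6.37% of the genes tested. Of the related genes it called 8 of the 86 tested without the genes below the median, and 14 of 99 with the trend and robust prior, beside these same shares. The related lists lean to bright genes, so the 14 of 99 is not read as an excess. The filters test fewer genes. The cause of the other changes was not tested. Leaving out any 1 array gave 0 calls in each of these counts, and so did the fit with the replicate block (0 genes in all, with 3492 genes at an unadjusted p under 0.05 against 4018 without it). With each array left out, the differences of the 3 subunits stayed between 0.65 and 1.15 log2. Small differences changed sign. Csf3 was at -0.0205 after quantile normalization and -0.0202 after median centring, and ran from -0.0195 to 0.084 over the fits that left out 1 array. In those fits Flt3 ran from -0.28 to 0.15 and Kit from -0.18 to 0.13. Csf2 ran from -0.24 to -0.01, Csf3r from -0.16 to -0.02 and Csf1r from 0.04 to 0.13, so the size of these uncalled differences rested on single arrays. Of 84 list medians, 6 moved by more than the spread between replicates. Dim probe sets, here those of Flt3, Kit and Csf3, limit what could be seen.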
